A study of Mus musculus with 22 samples.

Results

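The suprarenal aorta is the stretch of the abdominal aorta above the renal arteries. In the mice examined here it was the segment away from the infrarenal site where calcium chloride had been laid on the vessel. Its RNA was measured on 4 of the 22 arrays of the series, 1 for each combination of genotype and treatment, and these 4 arrays were chosen by their labels. The genotypes were wild type (WT) and tenascin C knockout (TNC-KO, KO for short), both male C57BL/6. Treated mice, labelled Ca+AngII, had 0.5 M CaCl2 applied around the infrarenal aorta and received angiotensin II (AngII) at 1 µg/min/kg for 1 week. The control mice had no treatment. No group with AngII alone, CaCl2 alone or sham surgery was analysed here, so the contributions of infusion, surgery and calcium salt cannot be told apart. Each array held RNA pooled over mice, 5 in an untreated pool and 8 in a treated one, from 10 mm of vessel above the right renal artery. The response is the log2 ratio of the treated over the untreated pool within a genotype, with 1 pool on each side. The 4 infrarenal arrays, 10 mm of vessel below the left renal artery and made from pools of the same sizes, served as the comparison segment.

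AngII raises blood pressure and acts on vascular cells through its receptors, of which the mouse type 1a receptor is encoded by Agtr1a. In the mouse, AngII infusion is widely used to provoke aneurysm and dissection of the suprarenal aorta, and the vessel wall is known to respond with matrix deposition in the adventitia and the entry of leukocytes. Smooth muscle cells of the media carry the contractile proteins, adventitial fibroblasts make collagen, and the vessel is wrapped in fat, nerves and lymphoid tissue that a dissected piece can carry along. Tenascin C is a matrix glycoprotein made by arteries under load or injury.

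The targeted gene was read first. Tnc stood at 1805 in the untreated WT pool, 2327 in the treated WT pool, 257.5 in the untreated KO pool and 488.7 in the treated KO pool, so both KO pools lay below both WT pools. Its response was 0.37 in WT and 0.92 in KO on the log2 scale, and its mean did not pass the test described below (0.65, standard error (SE) 0.16, adjusted p = 0.156). Another probe set of Tnc that reached the array median in at least 1 suprarenal pool did not share both signs. Defining markers of smooth muscle were among the brightest values, with Acta2, smooth muscle actin, at 23730 to 28340 and Myh11, smooth muscle myosin, at 11500 to 14720 over the 4 pools. The endothelial cadherin Cdh5 stood at 676.2 to 1209 and the fibroblast receptor Pdgfra at 1950 to 2729. The median probe set of an array was 119.3 to 126.7, and 30% of probe sets lay under 40.7 to 45.3, so values in that range are near the dim end of the array. The receptor gene Agtr1a stood at 1984 and 2515 in the untreated and treated WT pools and at 2944 and 2066 in the KO pools, and Ace, which makes AngII, at 387.6 and 580.1 in WT and 361.3 and 485.2 in KO, with mean responses of -0.08 (adjusted p = 0.944) and 0.50 (adjusted p = 0.239).

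A gene entered the comparison when it reached the array median in at least 1 of the 4 suprarenal arrays, which left 12227 of 18193 genes. It could thus enter through a single pool where it was high, so the filter shapes the counts of movers and the shares of all genes. Of these, 78 genes (0.638%) were at least 2-fold higher and 124 genes (1.01%) at least 2-fold lower after Ca+AngII in both genotypes. These counts carry no test. At the edge of the rule lay Fbln2, whose smaller ratio was 1.01, and Oas2 just outside it at 0.99, and on the lower side Tbrg3, just inside at -1.0, and Gimap8, just outside at -0.99. The rules for 1 genotype alone ask for a 2-fold difference there and for under 1.5-fold in the same direction in the other genotype, so that 70 genes lower in WT and higher in KO, and 3 genes the reverse, count under both genotypes. In KO alone, 303 genes (2.48%) were higher by this rule, and 46 (0.376%) were lower by the same rule. In WT alone, 160 genes (1.31%) were lower and 67 (0.548%) were higher. Across all genes tested the WT and KO responses correlated at r = 0.18 (Spearman's rho 0.17), with 55.9% of genes sharing a sign. The same figures in the infrarenal aorta were r = 0.79 (rho 0.78) and 79.5%. These correlations are across genes, which are not independent replicates, and the pairs of pools share the array type and scaling but no array. The plot of both responses places the gene groups that follow.

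**Figure D1:**
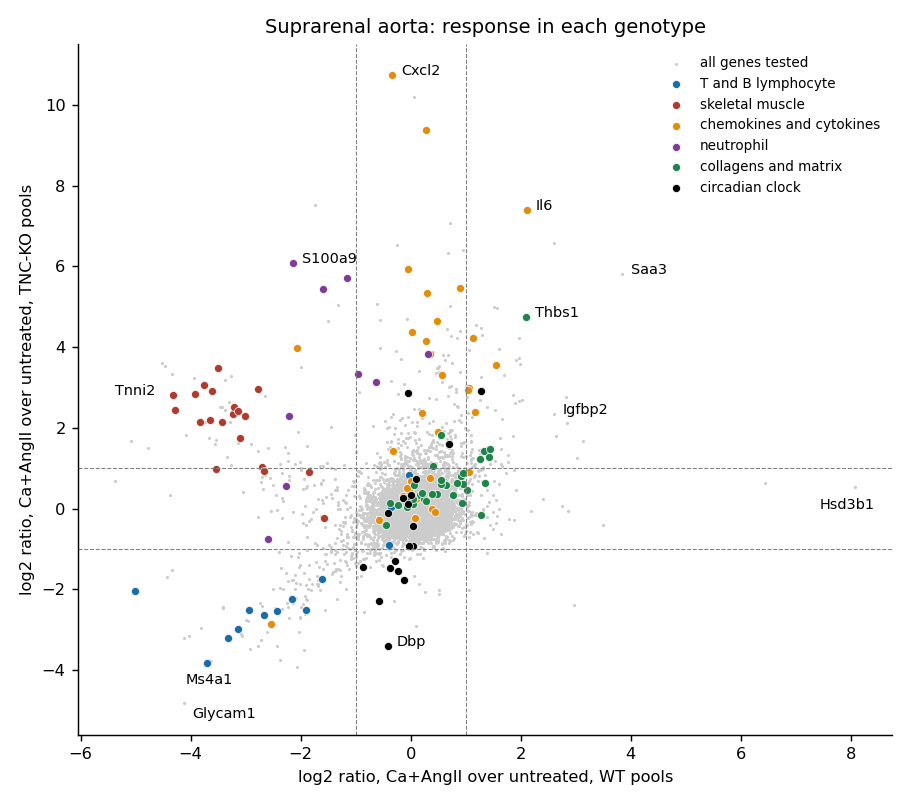
Each point is 1 of 12227 genes, placed by its log2 ratio of the Ca+AngII over the untreated suprarenal pool in WT (horizontal axis) and in TNC-KO (vertical axis), with dashed lines at a 2-fold difference and coloured points for 6 gene lists. Most lymphocyte genes (10 of 13 by 2-fold, against 1.01% of all genes) lie low in both genotypes, and skeletal muscle genes low in WT and mostly high in KO. Of the 32 chemokine and cytokine genes 20 are at least 2-fold higher in KO, against 3.74% of all genes. By the rule for KO alone 13 of them are higher, against 2.48%.

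A test was possible only with the WT and KO pools standing as replicates of the treatment. It was fitted in limma on the 8 aortic arrays with 2 residual degrees of freedom and called genes at a Benjamini-Hochberg adjusted p under 0.05. By it 79 genes (0.646%) rose and 76 (0.622%) fell in the suprarenal aorta, and 32 of the 78 and 61 of the 124 genes above were among them. At an unadjusted p under 0.05 the counts were 852 and 665. In the infrarenal aorta the same fit called 2125 rises (17.4%) and 1857 falls (15.2%). Of the 79 suprarenal risers, 73 also rose infrarenally, whereas of the 76 fallers 9 also fell infrarenally and 54 rose there. The suprarenal counts changed when a pool was left out. Without any one of the infrarenal pools they were 17 higher and 38 to 39 lower. In that case only the suprarenal pools are left to give the error, whichever infrarenal pool is missing. Without either WT suprarenal pool the estimate is the KO ratio alone and no longer stands for both genotypes. In what follows, the verbs rose and fell are used for genes that passed this test, with the mean of both genotypes' log2 ratios. Since the tissue was measured in bulk, fewer cells of a type and less RNA per cell cannot be told apart.

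Genes of the extracellular matrix were among the shared rises. Of 41 measured matrix genes 39 passed the filter, of which 11 rose and none fell, where 0.646% of all genes rose, and the list's median ratio was 0.56 in WT and 0.46 in KO, against 0.02 and -0.04 over all genes tested. Col8a1, a short-chain collagen of vessel walls, stood at 749.7 and 2033 in the untreated and treated WT pools and at 507.7 and 1423 in the KO pools. Both treated pools lay above both untreated pools, and the mean ratio was 1.46 (SE 0.10, adjusted p = 0.00596). Col12a1, a collagen that sits on the surface of collagen I fibrils, was at 436.8 and 1106 in WT and at 324.3 and 879.4 in KO (1.39, SE 0.12, adjusted p = 0.00649). Comp, cartilage oligomeric matrix protein, which binds collagens, was at 578.9 and 1560 in WT and 411.6 and 996.1 in KO (1.35, SE 0.15, adjusted p = 0.0149). The fibril collagen Col1a1 was at 3344 and 6270 in WT and 2756 and 4854 in KO (0.86, SE 0.09, adjusted p = 0.0148), and Col14a1, another fibril-associated collagen, rose by 0.92 (SE 0.09, adjusted p = 0.0101). The Wnt-responsive matricellular gene Ccn4 rose by 1.24 (adjusted p = 0.0228).

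Other matrix genes of high level stayed close to their starting values. Col3a1 stood at 23710 and 24190 in WT and 21640 and 23780 in KO (mean ratio 0.08, adjusted p = 0.833), Fn1, fibronectin, had a mean ratio of 0.29 (adjusted p = 0.268) and Postn, periostin, of 0.16 (adjusted p = 0.58). Thbs1, thrombospondin 1, was the widest of the shared matrix rises and the least even. It stood at 440 and 1886 in the WT pools and at 339.8 and 9133 in the KO pools, a ratio of 2.10 in WT and 4.75 in KO (mean 3.42, SE 0.53, adjusted p = 0.0404). Fmod, fibromodulin, was at 1802 and 4602 in WT and 1973 and 3071 in KO, and missed the threshold (adjusted p = 0.0658). The number of matrix genes called depended on the settings and ran from 1 to 17 over the alternatives, while none gave a fall.

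Of 19 elastic fibre genes measured 17 passed the filter, of which 3 rose, where 0.646% of all genes rose. Lox, the lysyl oxidase that cross-links elastin and collagen, was at 2519 and 4958 in WT and 1952 and 6105 in KO (1.31, SE 0.16, adjusted p = 0.0228). Fbln2, fibulin 2, rose by 1.16 (adjusted p = 0.011) and Ltbp2, a microfibril-bound protein, by 0.83 (adjusted p = 0.0338). Elastin itself (Eln) was at 7545 and 10260 in WT and 6295 and 9953 in KO, a mean of 0.55 that did not pass (adjusted p = 0.0982). Over the alternatives 0 to 5 genes of the list were called higher. Of 28 metalloproteinases and inhibitors measured 26 passed the filter, of which 4 rose, against 0.646% of all genes. They included Timp1, an inhibitor (666.8 and 2595 in WT, 398.4 and 7437 in KO, mean 3.09, adjusted p = 0.0366), and Mmp3, stromelysin 1 (1.71, adjusted p = 0.0433). The others were Mmp14, a membrane-bound collagenase (0.91, adjusted p = 0.0247), and Mmp2, a gelatinase that Mmp14 activates (0.74, adjusted p = 0.041). Mmp12, the macrophage elastase, was dim, at 72.51 and 135.2 in WT and 59.83 and 86.01 in KO, while it went from 192.2 to 4503 and from 82.75 to 4500 in the infrarenal pools. That difference between segments passed its test (-4.45, adjusted p = 0.0023).

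Among the strongest shared ratios was that of Igfbp2. Igfbp2, which binds insulin-like growth factors, was at 769.2 and 4681 in WT and 555.1 and 2794 in KO, a mean of 2.47 (SE 0.15, adjusted p = 0.00596). Its call held in 21 of 21 alternatives. Igf1 rose by 0.75 (adjusted p = 0.0407). Tnfrsf11b, osteoprotegerin, a decoy receptor for RANKL, was at 234.9 and 922.4 in WT and 256.4 and 1621 in KO (2.32, SE 0.19, adjusted p = 0.00649). It rose more than in the infrarenal aorta, where its ratios were 1.03 and 0.78 (difference 1.41, adjusted p = 0.0171). Esm1, a proteoglycan of activated endothelium, rose by 2.78 (adjusted p = 0.0226). Of 17 genes of the renin-angiotensin and endothelin systems measured 14 passed the filter, of which 2 rose, against 0.646% of all genes. Ednrb, the endothelin B receptor, was at 754.1 and 1691 in WT and 837.7 and 1809 in KO (1.14, SE 0.11, adjusted p = 0.0101), and Enpep, aminopeptidase A, which cleaves angiotensin II, was at 1605 and 2660 in WT and 1515 and 2458 in KO (0.71, adjusted p = 0.0363). Infrarenally Enpep was lower after treatment in both genotypes (-0.34 and -0.21), and the difference between segments passed (0.99, adjusted p = 0.00763). Agt, angiotensinogen, was dim and stood at 25.91 and 211 in WT and 65.42 and 155 in KO (mean 2.13, adjusted p = 0.111).

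Some acute phase and macrophage genes rose as well. Saa3, a serum amyloid A made in tissue, was at 120.1 and 1733 in WT and 49.23 and 2753 in KO (4.83, SE 0.40, adjusted p = 0.00649), and Serpina3n, a serine protease inhibitor, at 556.1 and 2067 in WT and 550.4 and 3401 in KO (2.26, SE 0.18, adjusted p = 0.00649). The segment difference did not pass for Saa3 (-1.90, adjusted p = 0.0777) and passed for Serpina3n (-1.32, adjusted p = 0.0179). Of 18 complement and acute phase genes measured 17 passed the filter. In the segment difference 7 of these were lower and 1 higher, against 7.06% and 6.36% of all genes. In the suprarenal test 3 of the 17 rose (0 to 7 over the alternatives), against 0.646% of all genes. Among them were C3ar1, a receptor for complement C3a (1.49, adjusted p = 0.0394), and Lbp, which carries lipopolysaccharide (0.84, adjusted p = 0.0363). Of 28 macrophage genes measured 27 passed the filter, of which 8 rose (0 to 14 over the alternatives), against 0.646% of all genes. Ccr2, the receptor that brings monocytes into tissue, was at 244.8 and 709.4 in WT and 209.5 and 1140 in KO (1.99, SE 0.23, adjusted p = 0.0187), and its segment difference did not pass (-0.64, adjusted p = 0.263). The Fc receptor Fcgr1 rose by 1.95 (adjusted p = 0.0287), Fcgr2b by 1.29 (adjusted p = 0.0279) and Adgre1, the F4/80 antigen, by 0.81 (adjusted p = 0.0363). Marco, also on the macrophage list, went the other way, with ratios of -3.81 in WT and -2.95 in KO, and did not pass (adjusted p = 0.344). Cd68 had ratios of 0.13 in WT and 1.05 in KO and did not pass either (adjusted p = 0.365). The list's median was 0.64 in WT and 0.84 in KO, and 2.63 and 2.53 infrarenally, with 17 of the 27 genes lower and 2 higher in the test of the segment difference, against 7.06% and 6.36% of all genes. The summed level of the macrophage list went from 60807 to 69440 in WT and from 54364 to 84907 in KO.

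Of 28 interferon-response genes measured 26 passed the filter, of which 3 rose, against 0.646% of all genes. They were Rsad2, viperin, at 753 and 1610 in WT and 1093 and 2906 in KO (1.25, SE 0.13, adjusted p = 0.0129), Oasl2 (0.94, adjusted p = 0.0287) and Gbp6 (0.77, adjusted p = 0.0363). The mast cell protease Mcpt4 rose by 1.31 (SE 0.17, adjusted p = 0.0279), from 248 to 596.4 in WT and from 291.1 to 746.7 in KO, and differed from its infrarenal ratios of -0.67 and -0.23 (difference 1.76, adjusted p = 0.00599). Hif3a and Alas2 rose above the renal arteries and had ratios of the opposite sign below them. The hypoxia-inducible factor subunit Hif3a stood at 23.37 and 168 in WT and 67.12 and 291.1 in KO (2.48, SE 0.36, adjusted p = 0.0363), with the untreated pools near the dim end of the arrays. On the log2(value + 32) scale its ratios were 1.85 and 1.70. Alas2, the enzyme that starts haem synthesis in red cell precursors, was at 141.4 and 459 in WT and 171.9 and 1694 in KO (2.50, adjusted p = 0.0297), and at 1369 and 354.5 and 1165 and 329.2 infrarenally.

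Genes of lymphocytes were prominent among the shared falls. Of 14 measured T and B lymphocyte genes 13 passed the filter, of which 8 fell and none rose, where 0.622% of all genes fell. The median of the list was -2.42 in WT and -2.50 in KO. Ms4a1, which encodes the B cell antigen CD20, was at 1697 in the untreated and 130.8 in the treated WT pool and at 2395 and 170.3 in the KO pools, a mean of -3.76 (SE 0.25, adjusted p = 0.00596). Cd79b, a chain of the B cell receptor complex, was at 867 and 98.62 in WT and 1269 and 161.2 in KO (-3.06, SE 0.18, adjusted p = 0.00596). Cd22, an inhibitory B cell receptor, was at 775.3 and 144.6 in WT and 1165 and 199.8 in KO (-2.48, SE 0.18, adjusted p = 0.00596). In each of them both treated pools lay far below both untreated pools. The T cell genes followed: Cd3d, a chain of the T cell receptor complex, was at 759.9 and 99.36 in WT and 1096 and 193.9 in KO (-2.72, SE 0.20, adjusted p = 0.00596), and Cd8b1, a chain of CD8, at 590.6 and 58.83 in WT and 623.4 and 67.31 in KO (-3.27, SE 0.28, adjusted p = 0.00649). Cd2 fell by 2.21 (adjusted p = 0.0148). The number of lymphocyte genes that fell was 7 to 9 over the alternatives, and the calls of Ms4a1, Cd79b, Cd8b1 and Cd3d held in 21 of 21.

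**Figure D2:**
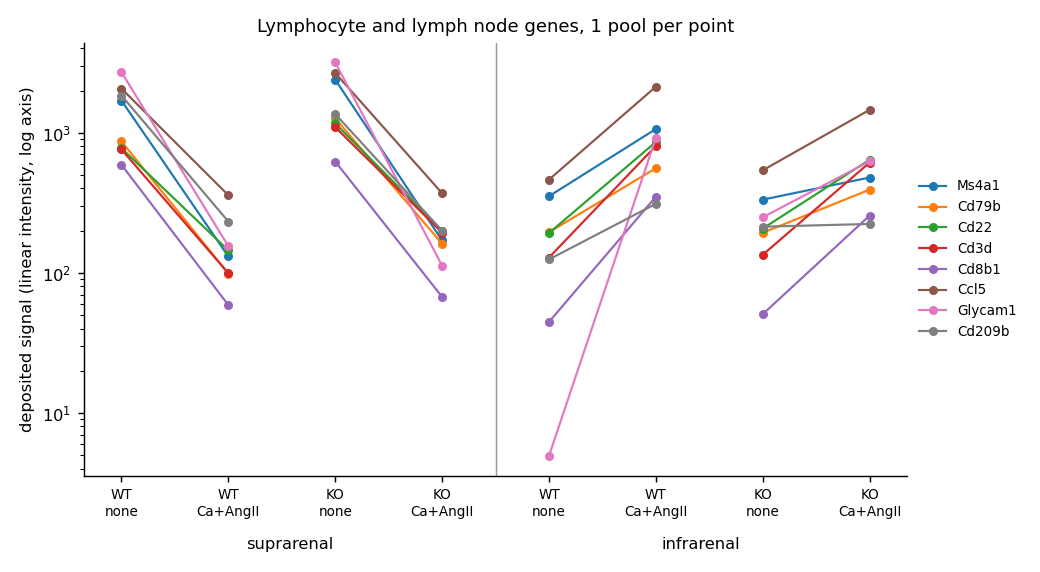
Deposited signal (log axis) of 8 lymphocyte and lymph node genes in the 8 aortic pools, with a line joining the untreated (none) and treated pool of a genotype. In the suprarenal pools each line drops, with Ms4a1 from 1697 to 130.8 in WT and from 2395 to 170.3 in KO, whereas most lines rise in the infrarenal pools.

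Most of these genes rose in the infrarenal aorta, 11 of the 13 by the same fit, where 17.4% of all genes rose. Ms4a1 went from 352 to 1064 in WT and from 333 to 479 in KO there, and Cd3d from 128.4 to 804.8 and from 134.4 to 612.4. The difference between segments passed the test for 11 of the 13 lymphocyte genes, against 7.06% of all genes in that direction, with -4.82 for Ms4a1 (adjusted p = 0.00102) and -5.14 for Cd3d (adjusted p = 0.000643). The untreated suprarenal pools held more of both genes than any untreated infrarenal pool, and the treated suprarenal pools held less Ms4a1 than any infrarenal pool. Antibody genes and Jchain varied. Ighm, the mu heavy chain, was at 3278 and 3207 in WT and 6155 and 10900 in KO (0.40, adjusted p = 0.753), and Jchain, which joins polymeric antibodies, at 1923 and 1492 in WT and 3714 and 3852 in KO (-0.16, adjusted p = 0.822). The summed level of the list, which holds both, went from 12197 to 5904 in WT and from 19126 to 16260 in KO. Ighm and Jchain were named after their values were seen. Ighv14-2, a variable segment of the antibody heavy chain, fell (-3.10, adjusted p = 0.0103), from 896.2 to 105.8 in WT and from 1181 to 136.6 in KO.

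Beyond that list, the strongest shared falls included other genes of lymphoid tissue. Spib, a transcription factor of B cells, was at 572.1 and 73.53 in WT and 683.7 and 99.76 in KO (-2.87, SE 0.21, adjusted p = 0.00596). Fcer2a, the low-affinity IgE receptor of B cells, fell by 2.83 (adjusted p = 0.0279), H2-Ob, an MHC class II chaperone of B cells, by 2.98 (adjusted p = 0.0148) and Bcl11a, a factor needed for B cell development, by 3.08 (adjusted p = 0.0164). Ccl5, a chemokine of T and NK cells, was at 2067 and 358 in WT and 2672 and 369.9 in KO (-2.69, SE 0.20, adjusted p = 0.00596). Il7r, the interleukin 7 receptor of T cells, was at 628.1 and 143.4 in WT and 864.9 and 256 in KO (-1.94, adjusted p = 0.00649), while it went from 171 to 1481 and from 190.9 to 1568 infrarenally. Genes of lymph node stroma and sinus macrophages read low as well. Glycam1, a ligand of L-selectin made by high endothelial venules of lymph nodes, was at 2707 and 154.9 in WT and 3182 and 112.5 in KO, and did not pass (SE 1.22, adjusted p = 0.188). Its infrarenal ratios of 7.54 and 1.33 lay far apart, and the fit takes its error from such disagreement. Cd209b, a lectin of marginal zone and sinus macrophages, fell by 2.88 (SE 0.29, adjusted p = 0.011), and Marco, a scavenger receptor of the same cells, was at 1511 and 107.4 in WT and 1168 and 151.6 in KO (adjusted p = 0.344). Of the 7 MHC class II genes 1 fell, against 0.622% of all genes, and it was H2-DMb2 (-1.44, adjusted p = 0.00941). H2-Aa, one of the bright ones, stood at 12120 and 10150 in WT and 12240 and 9368 in KO. How far the content of lymph node in the dissected pieces moved these values was not tested.

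In the treated KO pool, genes that attract and mark neutrophils stood far above their untreated level. Of 34 measured chemokine and cytokine genes 32 passed the filter. Of these, 20 were at least 2-fold higher in KO, against 3.74% of all genes, and 7 in WT, against 1.37%, and 13 met the rule for KO alone, against 2.48% of all genes. The list's median was 2.68 in KO and 0.28 in WT. Members such as Cxcl2 and Cxcl5 passed the filter only through the treated KO pool, where they were high. These counts and medians are therefore a description and no test of a difference. Before the values, the promoters of 4 genes of this kind are shown, because a shared element can be read in them. The sequences are RefSeq's on build GRCm38.p6, 250 bases before to 50 after the start, all on the plus strand: Cxcl1 at chr5:90890995-90891294, Cxcl2 at chr5:90903649-90903948, Cxcl3 at chr5:90785851-90786150 and Il6 at chr5:30012864-30013163. Capitals mark each match, on either strand, to the letters GGG, any 2 bases, then TTTCC, a form of the sites bound by NF-kB, a transcription factor of inflammation.
Cxcl1: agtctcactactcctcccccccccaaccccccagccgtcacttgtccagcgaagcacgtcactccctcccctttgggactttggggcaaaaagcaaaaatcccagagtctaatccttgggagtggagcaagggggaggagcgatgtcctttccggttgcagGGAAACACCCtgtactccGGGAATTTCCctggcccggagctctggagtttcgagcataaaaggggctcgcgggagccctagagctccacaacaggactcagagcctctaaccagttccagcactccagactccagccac
Cxcl2: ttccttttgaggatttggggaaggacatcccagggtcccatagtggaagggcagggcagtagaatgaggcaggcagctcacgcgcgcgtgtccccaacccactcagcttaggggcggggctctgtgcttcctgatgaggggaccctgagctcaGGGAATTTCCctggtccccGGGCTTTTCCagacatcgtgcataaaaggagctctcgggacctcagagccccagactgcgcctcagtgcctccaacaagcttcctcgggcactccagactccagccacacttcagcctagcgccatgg
Cxcl3: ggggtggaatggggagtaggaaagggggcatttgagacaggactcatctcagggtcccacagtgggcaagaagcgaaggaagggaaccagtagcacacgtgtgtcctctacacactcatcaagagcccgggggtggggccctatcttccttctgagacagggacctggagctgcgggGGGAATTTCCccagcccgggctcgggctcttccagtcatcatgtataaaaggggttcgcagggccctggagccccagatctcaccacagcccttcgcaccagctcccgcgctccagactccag
Il6: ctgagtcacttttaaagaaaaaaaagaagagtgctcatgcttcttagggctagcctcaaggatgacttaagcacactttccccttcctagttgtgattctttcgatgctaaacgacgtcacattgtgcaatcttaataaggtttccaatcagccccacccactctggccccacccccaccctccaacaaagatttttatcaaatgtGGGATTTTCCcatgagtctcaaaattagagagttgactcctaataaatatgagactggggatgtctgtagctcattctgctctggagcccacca
Such a match occurred in 535 of 32851 promoters of this length (1.63%). Among the 20 chemokine and cytokine genes at least 2-fold higher in KO, 14 had a promoter in the table and 5 held a match (Ccl9, Cxcl1, Cxcl2, Il1rn and Il6). Of the other 12 genes of the list, 7 had one and 1 held a match (Csf1). Cxcl3 was not on the list. A match is a description of these letters and does not show that a factor was bound.

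The neutrophil-attracting chemokine Cxcl2 stood at 30.47 and 24.1 in the untreated and treated WT pools, at 3.544 in the untreated KO pool and at 6002 in the treated KO pool. Only the treated KO pool was above the dim end of the array. The raw ratio of 10.73 rests on that dim untreated value, and on the log2(value + 32) scale the ratio was 7.41 in KO and -0.16 in WT. Cxcl3 was at 17.41 and 18.21 in WT and 7.954 and 9265 in KO, and Cxcl5 at 23.27 and 28.21 in WT and 4.283 and 2848 in KO. Cxcl1 was at 181.9 and 337.8 in WT and 91.35 and 4027 in KO, a ratio of 0.89 and 5.46. The monocyte chemokine Ccl2 was at 195.3 and 188.3 in WT and 70.1 and 4320 in KO, and interleukin 1 beta (Il1b) at 182.3 and 222.8 in WT and 97.97 and 3973 in KO. All these genes were thus high in 1 of the 4 suprarenal pools. Il6, a cytokine that drives the acute phase, was higher in both genotypes and unevenly so, at 45.4 and 197 in WT and 26.9 and 4526 in KO (mean 4.75, SE 1.05, adjusted p = 0.11).

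Below the renal arteries both genotypes had these genes high after treatment, with Cxcl2 at 729.4 in WT and 732.6 in KO and Ccl2 at 1327 and 1467. The treated KO suprarenal pool exceeded both for Cxcl2, Cxcl3, Cxcl5, Cxcl1, Ccl2, Il1b and Il6, with 6002, 9265, 2848, 4027, 4320, 3973 and 4526. The suprarenal pools alone leave no error for a difference between genotypes. Its mean over both segments was tested and none of the 32 chemokine genes passed. Cxcl2 had a KO minus WT response of 5.15 (adjusted p = 0.731) and Ccl2 of 3.32 (adjusted p = 0.655). That test takes its error from the disagreement of the segments, so it cannot decide on a difference present in 1 segment alone. The ratios of Cxcl2 were -0.34 in WT and 10.73 in KO suprarenally, and 4.91 and 4.14 infrarenally. By that test 18 genes of all tested (0.147%) were higher and 3 (0.0245%) lower in KO.

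**Figure D3:**
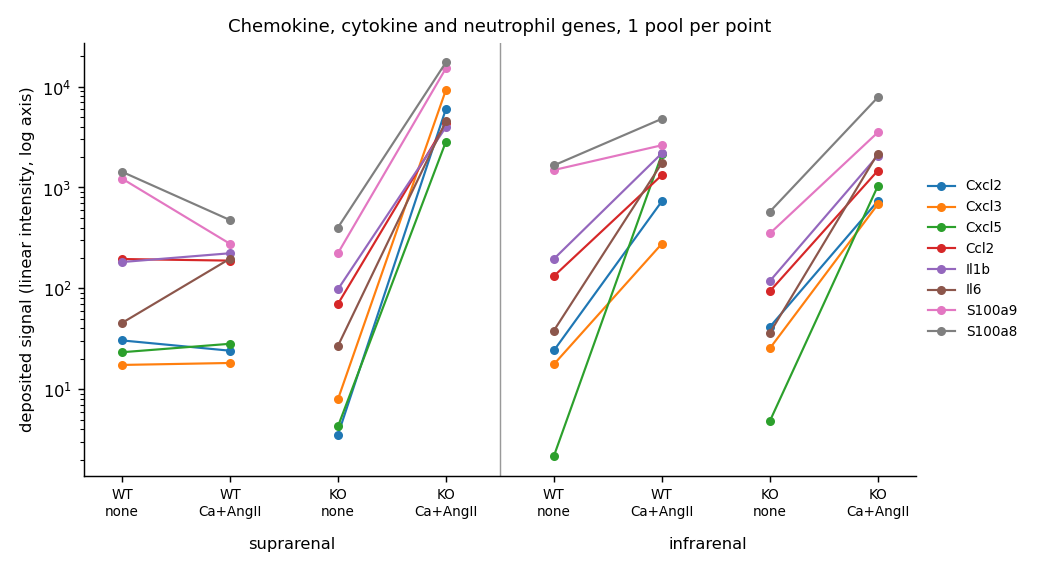
Deposited signal (log axis) of 8 chemokine, cytokine and neutrophil genes in the 8 aortic pools, with a line joining the untreated (none) and treated pool of a genotype. In the suprarenal WT pools the lines move by under 2-fold or fall, except that of Il6, and in the suprarenal KO pools each rises, with S100a9 from 223.3 to 15180.

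Neutrophil genes were high in the same pool. Of 11 measured 9 passed the filter. Of these, 7 were at least 2-fold higher in KO by the rule for KO alone, against 2.48% of all genes, and 6 at least 2-fold lower in WT, against 2.56%. S100a9 and S100a8, the calprotectin subunits that fill neutrophil cytoplasm, stood at 1224 and 276.4 and at 1430 and 475 in the WT pools, and at 223.3 and 15180 and at 401 and 17380 in the KO pools. Csf3r, the receptor for granulocyte colony-stimulating factor, was at 99.48 and 124.4 in WT and 131.7 and 1889 in KO, and Cxcr2, the receptor for Cxcl1 and Cxcl2, at 36.4 and 18.75 in WT and 106.5 and 1068 in KO. The granule genes Ngp and Camp did not join them. Ngp was at 369.7 and 61.1 in WT and 113.3 and 67.09 in KO, and Camp at 195.5 and 40.42 in WT and 29.58 and 43.55 in KO. Mmp8, another granule gene, did, at 72.13 and 46.52 in WT and 36.62 and 323.3 in KO. The summed level of the list went from 3689 to 1128 in WT and from 1197 to 36577 in KO. None passed the suprarenal test or the genotype test. Cd177, Cxcr2 and Mmp8 passed the filter only through the treated KO pool, and Ngp and Camp only through the untreated WT pool. The neutrophil counts are therefore a description and no test of a difference. Other genes that stood high in the treated KO pool were the coagulation and protease genes Plaur, the urokinase receptor (257.2 and 286 in WT, 311.4 and 1722 in KO), Serpinb2 (37.35 and 58.86 in WT, 35.26 and 773.3 in KO), Adam8 (183.2 and 202.4 in WT, 201.5 and 2146 in KO) and Mmp9, gelatinase B (191.7 and 324 in WT, 140.6 and 1711 in KO). Of 14 coagulation and fibrinolysis genes measured 12 passed the filter. Of these, 8 were at least 2-fold higher in KO, against 3.74% of all genes, and none in WT, and 4 met the rule for KO alone, against 2.48%. Serpinb2 passed the filter only through the treated KO pool, so these counts too are a description and no test. Arg1, arginase 1, was at least 2-fold higher in both genotypes, at 20.1 and 123 in WT and 70.98 and 6791 in KO (adjusted p = 0.0651). How far neutrophil content moved the chemokine values was not tested.

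The genes lower in KO alone included output genes of the circadian clock. The clock is a feedback loop in which Arntl and Clock switch on the Per, Cry and Nr1d genes and the PAR bZIP factors Dbp, Tef and Hlf through E-box elements, and the products of Per and Nr1d repress the loop. Nfil3 acts against Dbp at D-box elements. The promoters of Ciart and Per3 show these elements, in RefSeq's sequence on GRCm38.p6, both on the minus strand: Ciart, a repressor of the loop, at chr3:95882179-95882478 with the E-box letters CACGTG in capitals, and Per3 at chr4:151044616-151044915 with matches, on either strand, to the D-box letters TTA, any base, then GTAA in capitals.
Ciart: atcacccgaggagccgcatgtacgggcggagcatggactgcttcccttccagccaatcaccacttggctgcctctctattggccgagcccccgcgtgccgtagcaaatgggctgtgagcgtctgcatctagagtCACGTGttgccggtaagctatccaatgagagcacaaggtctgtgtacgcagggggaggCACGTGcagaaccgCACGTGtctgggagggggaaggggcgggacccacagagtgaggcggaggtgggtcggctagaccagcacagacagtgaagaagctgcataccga
Per3: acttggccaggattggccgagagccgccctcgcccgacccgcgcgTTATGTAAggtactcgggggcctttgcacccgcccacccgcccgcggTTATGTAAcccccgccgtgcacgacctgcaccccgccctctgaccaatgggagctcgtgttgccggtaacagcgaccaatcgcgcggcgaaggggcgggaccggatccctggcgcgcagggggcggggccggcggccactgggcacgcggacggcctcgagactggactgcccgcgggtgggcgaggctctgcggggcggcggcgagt
The E-box letters occurred in 2349 of 32851 promoters (7.15%) and the D-box letters in 763 (2.32%). Of the 7 clock genes at least 2-fold lower in KO, 6 had a promoter in the table, of which 2 held an E-box (Ciart and Tef) and 1 a D-box match (Per3). Of the other 11 clock genes, 10 had a promoter, and 2 held an E-box (Cry1 and Per1).

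Dbp stood at 6496 and 4858 in the untreated and treated WT pools and at 6511 and 618.3 in the KO pools, so that the treated KO pool lay apart from the other 3. Nr1d2, a repressor of the loop also called Rev-erb beta, was at 6517 and 5955 in WT and 7200 and 2108 in KO. Per3 was at 968.9 and 652.3 in WT and 1184 and 241.2 in KO, and Hlf at 392 and 300.3 in WT and 399.3 and 145.3 in KO. Of 19 clock genes measured 18 passed the filter, of which 6 met the rule for lower in KO alone, against 0.376% of all genes, and 3 were at least 2-fold higher in KO, against 3.74%. Those 3 were Npas2, a partner of Arntl, at 108.8 and 263.7 in WT and 57.81 and 432.2 in KO, Arntl, at 166.8 and 271.5 in WT and 214.7 and 646 in KO, and Nfil3, at 273.4 and 265.5 in WT and 227.8 and 1646 in KO. Per2 was the 1 clock gene that fell over both genotypes (-1.16, SE 0.17, adjusted p = 0.0373), from 947.9 to 518.7 in WT and from 1049 to 385.5 in KO. The infrarenal pools had the same order, with Dbp at 8340 and 3193 in WT and 9099 and 548.7 in KO.

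The genotype difference of the response over both segments passed for 3 clock genes, with a KO minus WT response of -2.82 for Dbp (SE 0.17, adjusted p = 0.000945), -1.62 for Per3 (adjusted p = 0.021) and -1.48 for Nr1d2 (adjusted p = 0.0207). These 3 were all the genes lower in KO by that test, in which the segments stand as replicates. The sources used here give no time of day for the collection of the tissue, so a difference in that time and the genotype cannot be told apart.

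**Figure D4:**
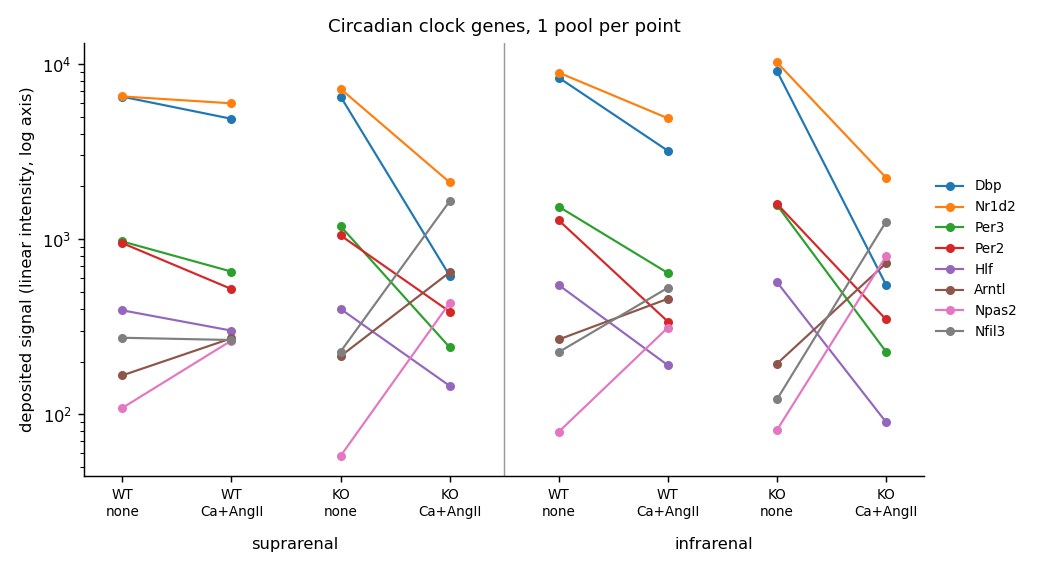
Deposited signal (log axis) of 8 circadian clock genes in the 8 aortic pools, with a line joining the untreated (none) and treated pool of a genotype. Dbp, Nr1d2, Per3, Per2 and Hlf drop most steeply in the KO pools of both segments, Dbp from 6511 to 618.3 suprarenally, while Arntl, Npas2 and Nfil3 climb there.

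The genes lower in WT alone included those of skeletal muscle. All 20 skeletal muscle genes measured were at least 2-fold lower after treatment in WT, against 1.31% of all genes by the rule for WT alone, and 16 of the 20 were at least 2-fold higher in KO, against 3.74%. Tnni2, fast skeletal troponin I, was at 8013 and 399.8 in WT and 205.1 and 1433 in KO. Ckm, muscle creatine kinase, was at 6610 and 718 in WT and 268.9 and 1534 in KO, and Myh4, a fast myosin, at 6453 and 571.4 in WT and 164 and 1830 in KO. The untreated WT pool thus stood far above the other 3. Tnnt1, at 776.5 and 118.9 in WT and 48.37 and 99.53 in KO, passed the filter only through that pool. The 2-fold counts of this list are therefore a description. The summed level of the list was 110059 and 12317 in WT and 6509 and 26558 in KO, and infrarenally 29256 and 10631 in WT and 2908 and 25093 in KO. None passed the suprarenal test, in which the genotypes cancel, and 11 passed the genotype difference over both segments, against 0.147% of all genes higher in KO, with 6.58 for Tnni2 (adjusted p = 9.15e-05). Skeletal muscle is not part of the aortic wall, and how far its content in the dissected pieces moved other genes was not tested.

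Some genes of adrenal steroid synthesis were among those higher in WT alone. Hsd3b1, which makes progesterone from pregnenolone, was at 5.243 and 1425 in WT and 7.906 and 11.4 in KO, and Cyp11b1, the enzyme of the last step of corticosterone synthesis, at 51.9 and 376 in WT and 39.71 and 38.2 in KO. Star, which carries cholesterol into mitochondria, was at 210 and 591.2 in WT and 201.7 and 256.8 in KO. The treated WT pool was the high one of the 4. Another pool stood out below the renal arteries, where the untreated KO pool held Hsd3b1 at 2613 and Cyp11b1 at 1012 and the treated one 181.9 and 135.3. Of 11 adrenal genes measured 9 passed the filter, of which 3 met the rule for WT alone, against 0.548% of all genes. Hsd3b1 and Cyp11b1 passed the filter only through the treated WT pool, where they were high, so this count is a description. None passed the suprarenal test or the genotype difference, and 2 were higher in the segment difference, against 6.36% of all genes. Among these was Mrap, which carries the corticotropin receptor to the cell surface (1.24, adjusted p = 0.0256). Mrap stood at 3288 and 3237 in WT and 2242 and 3241 in KO, and so did not follow Hsd3b1 across the pools. Other members of the list were higher in both genotypes. Mc2r was at 63.15 and 164.6 in WT and 37.5 and 107.4 in KO, with ratios of 1.38 and 1.52. Cyp21a1 was at 127.2 and 193.1 in WT and 56.24 and 124.5 in KO, with ratios of 0.60 and 1.15. The adrenal gland lies beside the suprarenal aorta, and its share in these pools was not tested. A neighbouring list, of sympathetic and chromaffin genes, was bright in the suprarenal pools, with a summed level of 118211 to 157964 against 13724 to 29416 infrarenally. Its catecholamine enzyme Th stood at 6763 and 7320 in WT and 9047 and 6514 in KO. None of its 22 genes passed the suprarenal test, in which 0.646% of all genes rose and 0.622% fell.

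Counting opposite movements, 70 genes were at least 2-fold lower in WT and at least 2-fold higher in KO, and 3 (Ces5a, Hao2 and Klk1, the last named after its values were seen) the reverse. Skeletal muscle genes such as Tnni2, Mb, myoglobin (9546 and 488.9 in WT, 209.9 and 1148 in KO), and Myl2, a myosin light chain (2426 and 119.4 in WT, 22.8 and 229.1 in KO), were among the 70, together with S100a8, S100a9 and the chemokine Ccl3. The difference between genotypes was not tested in the suprarenal pools alone.

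Contractile and metabolic genes of the wall and its fat gave no call in the suprarenal test. Over all genes 0.646% rose and 0.622% fell in it, so a list of this size would hold few or no calls at that share. The absence of calls therefore does not set these lists apart. Of 25 smooth muscle genes none passed the suprarenal test in either direction, also in 21 alternatives, and the medians were -0.23 in WT and -0.12 in KO. The widest ratios of the list were those of Acta1, -2.78 and 2.97, a skeletal actin that the skeletal muscle list shares. Infrarenally 24 of the 25 fell, where 15.2% of all genes fell, and the segment difference passed for 19, against 6.36% of all genes in that direction. Myh11 was at 14720 and 12790 in WT and 14220 and 11500 in KO above the renal arteries, and at 18740 and 8638 in WT and 18980 and 9968 in KO below them (difference 0.77, adjusted p = 0.0128). Tagln, transgelin, had a mean ratio of -0.20 and, in the test of the segments, a difference of 0.54 (adjusted p = 0.0348), whereas Acta2 did not differ beyond its error (0.14, adjusted p = 0.525). Myocd, myocardin, the coactivator of these genes, was at 648.7 and 371.7 in WT and 494.4 and 359 in KO (-0.63, adjusted p = 0.375), against 834 to 194.9 and 1635 to 187 infrarenally. Of 26 brown and white fat genes none passed suprarenally and 24 fell infrarenally, against 15.2% of all genes. Ucp1, the heat-producing carrier of brown fat, was at 15020 and 10640 in WT and 10590 and 6235 in KO, and at 5716 and 390.9 and 5125 and 306.6 infrarenally (difference 3.34, adjusted p = 0.000643). The 25 oxidative phosphorylation genes and 17 fatty acid oxidation genes gave no suprarenal call, and 25 and 16 of them fell infrarenally, against 15.2% of all genes. The suprarenal ratios of the oxidative phosphorylation genes were below 0 for all 25 in WT, from -0.53 to -0.18 with a median of -0.31, and ran from -0.33 to 0.01 in KO with a median of -0.12. Of 18 endothelial genes none passed suprarenally, and the medians were 0.18 in WT and 0.26 in KO. The plot of list medians sets these groups side by side.

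**Figure D5:**
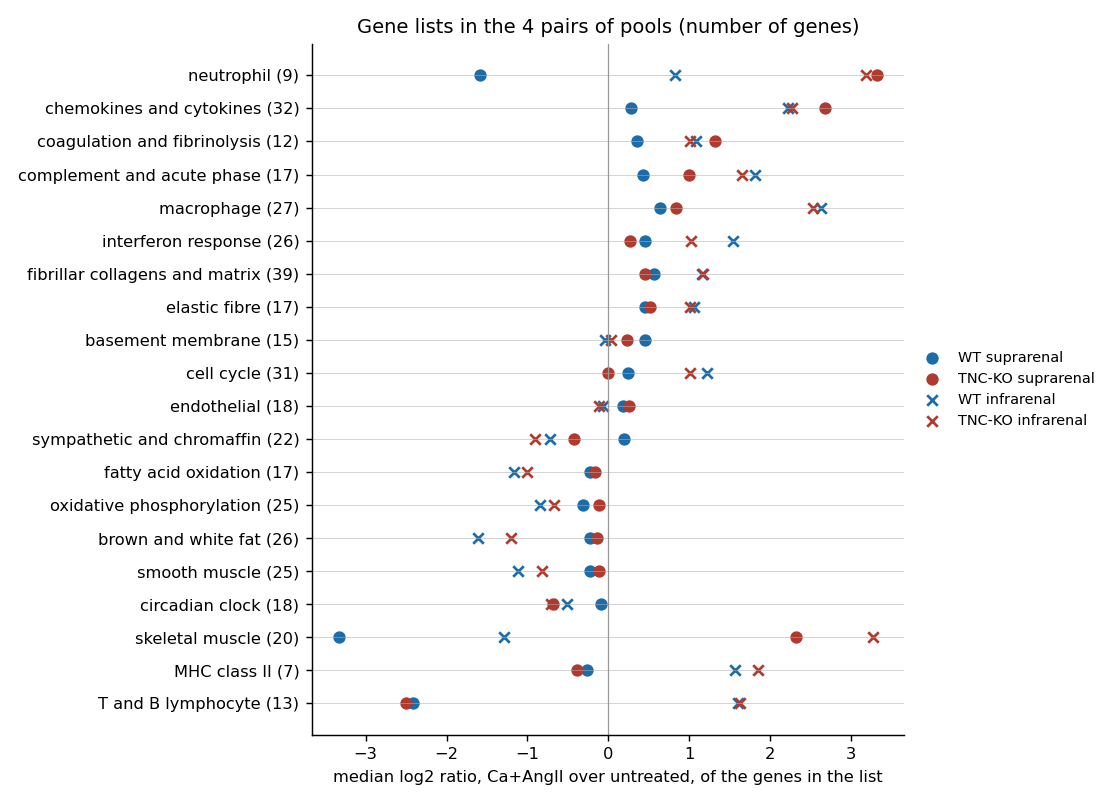
Median log2 ratio of the Ca+AngII over the untreated pool for the genes of 20 lists, with circles for suprarenal and crosses for infrarenal pools, blue for WT and red for TNC-KO, and the number of genes that passed the filter in brackets. Lymphocyte genes have suprarenal medians of -2.42 and -2.50 and infrarenal ones of 1.60 and 1.63, while smooth muscle and fat genes lie near 0 suprarenally and below 0 infrarenally.

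Over all genes the segment difference passed for 778 genes higher (6.36%) and 863 lower (7.06%) in the suprarenal response. The 10 lowest p-values of the higher side included fat genes (Ucp1, Cidea, Cox7a1) and genes such as Hhip, a hedgehog inhibitor, which was at 554.5 and 406.6 in WT and 567.9 and 375.5 in KO above the renal arteries and at 1208 and 114.8 in WT and 1165 and 143.9 in KO below them (difference 2.68, adjusted p = 0.00159). Those of the lower side included genes of leukocytes. Mpeg1, a pore-forming protein of macrophages, was at 1721 and 1728 in WT and 2340 and 2560 in KO and at 962.6 and 9465 and 1065 and 8622 infrarenally (-3.09, adjusted p = 0.000643). Irf8, a transcription factor of macrophages, dendritic and B cells, fell suprarenally (-1.27, adjusted p = 0.0148), from 925.1 to 380 in WT and from 1000 to 415.7 in KO, and had ratios of 2.68 and 2.34 infrarenally.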

How the data were processed

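RNA was hybridised to a 3' expression array of the mouse genome, and the authors deposited 1 linear intensity for each probe set, from 0.037 to 39169. Per the submitters' processing notes the authors used Affymetrix Expression Console, whose version and algorithm the sources used here do not state. The trimmed mean was 500.0 on every array, as after scaling to a common mean. Of 45101 probe sets, 34945 carried 1 gene symbol, for 18193 genes; 64 control probe sets, 932 naming several genes and 9160 unnamed ones did not enter. Where a gene had several probe sets, the brightest on average over the 22 arrays was used. For the genes selected for naming, 166 of 207 other probe sets that passed the filter gave the same signs in both genotypes.

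The values were taken to log2 with no pseudocount. In limma 3.58.1 (R 4.3.3) the 8 aortic arrays were fitted with segment, genotype, treatment, segment by genotype and segment by treatment, with moderated variances that follow intensity, and p-values were adjusted (Benjamini-Hochberg) over 12227 genes. A fit with genotype by treatment in place of segment by genotype gave the genotype difference, also with 2 residual degrees of freedom. Nothing beyond these pools measures the spread between mice. The p-values of the suprarenal, infrarenal and segment tests measure how far WT and KO pools, 1 array each, disagreed. Those of the genotype difference measure how far the suprarenal and infrarenal pools disagreed on it, so there the segments stand as replicates. On simulated data with 200 of 12227 genes changed, the suprarenal test recovered 47% of changes of 1 and 93% of changes of 2 on the log2 scale, and 4.11% of its 146 calls were false. The segment difference recovered 12% and 75%, with 3.33% of 90 calls false. The genotype difference was not simulated. The simulated noise was independent, with 1 spread per gene on all 8 arrays, and no response differed between genotypes. In the data the WT and KO responses correlated at r = 0.18 suprarenally and 0.79 infrarenally. The simulated rates therefore do not give the share of false calls in these data. The number of arrays limits the precision.

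Genes were selected for naming by rules, and the text names only part of those selected. The rules took Tnc and 25 other genes listed by hand, and the 20 genes at each end of the shared ranking. They also took the 10 largest each way in WT alone and in KO alone, and the 10 lowest p each way for the segment difference. Up to 8 members of each gene list with the largest mean ratio were added. Ighm, Jchain, Cxcr2, Ciart, Tef, Cry1, Per1, Ccl9, Il1rn, Csf1, Ccl3, Klk1 and the muscle genes outside these sets were named after their values were seen. The members and lists were chosen with earlier results of these data known. Genes had to match a list symbol exactly, and those the table does not name were not analysed here. Alternatives covered normalization, filter, pseudocount, probe set choice, variance model, design and leaving out each array.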

Additional observations from a re-analysis of the deposited data

Results flagged for a closer look

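The suprarenal response differed from the infrarenal one by test for 778 genes higher and 863 lower. The 10 genes with the lowest p-values on the higher side differed by 3.34 (Ucp1), 2.63 (Cidea), 2.01 (Dsp), 1.77 (Pdk4), 2.51 (Cox7a1), 2.29 (Ptprz1), 1.99 (Sost), 1.73 (Npnt), 2.68 (Hhip) and 1.73 (Tspan2) on the log2 scale. On the lower side the differences were -5.22 (Igkv8-30), -5.02 (Il7r), -3.26 (Ms4a6b), -3.29 (Limd2), -3.78 (Irf8), -3.09 (Mpeg1), -3.19 (Coro1a), -5.14 (Cd3d), -3.65 (Epsti1) and -3.27 (Cd48).

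The response over both segments differed between genotypes by test for 18 genes higher and 3 lower in KO. The lower genes were the clock genes Dbp (-2.82), Per3 (-1.62) and Nr1d2 (-1.48). Genes of skeletal muscle filled most of the higher side, with Myh4 at 6.84, Tnni2 and Tnnt3 at 6.58, Myot at 6.01, Tnnc2 at 5.97, Mylpf at 5.74, Ckm at 5.73, Ttn at 5.69, Pvalb at 5.49, Acta1 at 5.36, Actn3 at 5.17, Pgam2 at 4.95, Ryr1 at 4.7, Atp2a1 at 4.42, Myoz1 at 4.19 and Myl1 at 3.38. The remaining genes were the immediate early factor Egr1 (1.24) and the heat shock gene Hspa1b (1.62).

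In the suprarenal pools 70 genes were at least 2-fold lower in WT and 2-fold higher in KO, and 3 the reverse, and those differences were not tested.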

How the results depend on the processing

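The fit pairs the treated and untreated pools by genotype. Without the genotype block 139 genes were higher and 109 lower. By replicate number, as distinct from genotype, no paired analysis was possible because each tissue group is 1 array and carries no such number. Of the selected genes, 62 past the threshold were followed across settings, and the text does not name all of them. Their call held for 62 under quantile normalization, median centring, the 30th percentile filter and the other probe set choice. It held for 61 with log2(value + 32), for 48 to 56 without 1 suprarenal array, and for 30 without 1 infrarenal array. It held for 19 with the mean of all probe sets, 17 without an intensity trend and 15 with the 4 suprarenal arrays alone. None of these 62 genes changed direction under these settings. Apart from Tnc, named genes that did not pass were not followed across settings, and where their WT and KO ratios differ in sign, as for S100a9 and Tnni2, the direction of the mean depends on which genotype is kept. The cause of each shift below was not tested beyond the fewer arrays or genes a setting uses.

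Against 79 higher and 76 lower, the suprarenal test called 206 and 128 after centring each array on its median, 16 and 32 with the mean of all probe sets, 5 and 31 without an intensity trend and 2 and 26 with the suprarenal arrays alone. It called 117 lower with robust variances and 122 higher with a shared genotype effect. Leaving out 1 array gave from 17 to 323 higher and from 38 to 109 lower. The segment difference gave 451 and 561 with the mean of probe sets and 348 and 575 without a trend. The genotype difference gave 31 higher after centring, 1 lower with the mean of probe sets, and 10 higher and 0 lower without a trend in limma, where 420 genes were lower at an unadjusted p under 0.05 in the main fit.

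The 2-fold counts, which have no test, moved with the filter. Without a filter they were 320 higher and 375 lower in both genotypes, 612 and 991 in WT alone and 1237 and 535 in KO alone. With the 30th percentile they were 158 and 212, 262 and 472, and 641 and 206, and with the 70th percentile 48 and 59, 13 and 75, and 186 and 19. With log2(value + 32) 49 were higher in both, 36 higher in WT alone and 26 lower in KO alone. With the mean of probe sets 122 were higher and 262 lower in WT alone and 117 lower in KO alone. At 1.5-fold 240 and 222, and at 3-fold 22 and 74, moved in both genotypes. Dim values near the low end of the arrays limit the folds.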
